A study of Mus musculus with 4 samples.

Results

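The miR-30 family was followed in small-RNA libraries of interstitial cells of Cajal (ICC), the Kit-bearing pacemaker cells of the gut muscle layer. Its members were the entries of the deposited miRNA table named for an arm of miR-30a to miR-30e, and 11 of the 982 entries met that rule: 5 arms from the 5′ side of a hairpin (5p) and 6 from the 3′ side (3p). There were 4 libraries, 1 for each combination of genotype and tissue. The ob/ob libraries (Lepob/ob;KitcopGFP/+, labelled diabetic) came from jejunum and from colon, and so did the ob/+ libraries (Lepob/+;KitcopGFP/+, labelled healthy and also wild type). The Lep ob mutation removes functional leptin. Animals of both genotypes were C57BL/6 mice aged 11 to 20 weeks and carried a copGFP reporter at 1 Kit allele, by which the cells were sorted from whole dissociated jejunal or colonic tissue. Each library was a pool (15 each, per the labels), so a group had no replicates, and tests across genotype or tissue rest on the agreement of the other factor's libraries. The libraries held no mRNA, and Kit itself, the defining marker of ICC, could not be checked.

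A miRNA guides Argonaute to mRNAs that pair with its seed, bases 2 to 8 from the 5′ end, and miRNAs with the same seed are counted as a family because their predicted targets largely coincide. The miR-30 family is expressed widely and is known for restraining Snai1, a driver of the epithelial-to-mesenchymal transition, and, in human fat-derived cells, for promoting adipocyte formation. The 3p arms come from the other side of the same hairpins, carry other seeds and are usually less abundant.

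The sequences below show how alike the members are, since 1 base separates some of the entries whose counts are compared. They are the RefSeq mature sequences (GRCm38.p6) of the 7 members that matched by name. The arms of miR-30b and miR-30d had no match, so how alike they are to the other members was not compared. Capitals mark the seed. The 5p arms shown share 1 seed:
miR-30a-5p: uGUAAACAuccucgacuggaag
miR-30c-5p: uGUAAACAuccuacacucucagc
miR-30e-5p: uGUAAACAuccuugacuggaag
The 3p arms of miR-30a and miR-30e share another, and those of the hairpins miR-30c-1 and miR-30c-2 a different seed again:
miR-30a-3p: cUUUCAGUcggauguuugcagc
miR-30e-3p: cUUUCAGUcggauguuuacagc
miR-30c-1-3p: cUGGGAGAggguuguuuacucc
miR-30c-2-3p: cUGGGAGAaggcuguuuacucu

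Counted from the 5′ end, miR-30a-5p and miR-30e-5p are separated by C13U alone, and miR-30a-3p and miR-30e-3p by G18A alone, the first base being that of miR-30a. miR-30c-1-3p and miR-30c-2-3p differ by G9A, U12C and C22U, the first base being that of miR-30c-1-3p. Of the 745 table entries with a RefSeq mature sequence, miR-384-5p was the only 1 outside the family with the 5p seed, and none outside it carried either 3p seed.

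The hairpins of miR-30a and miR-30e show where the arms lie. Capitals here mark the 5p arm and then the 3p arm:
Mir30a: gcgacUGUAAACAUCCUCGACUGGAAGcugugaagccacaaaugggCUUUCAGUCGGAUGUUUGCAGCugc
Mir30e: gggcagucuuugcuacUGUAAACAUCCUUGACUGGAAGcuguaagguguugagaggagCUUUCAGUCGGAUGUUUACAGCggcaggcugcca
In GRCm38.p6, Mir30a lies at chr1:23272269-23272339 on the plus strand, with Mir30c-2 on the same chromosome. Mir30e lies at chr4:120772606-120772697 on the minus strand, and both it and Mir30c-1 are intronic in Nfyc, the gene of a subunit of the CCAAT-binding factor NF-Y. In the GENCODE M21 annotation the opposite strand at Mir30e carries another miRNA gene, Mir30f. Mir30b and Mir30d are neighbours on chromosome 15. The 6 hairpin genes thus lie on 3 chromosomes, and since Mir30c-1 and Mir30c-2 give the same miR-30c-5p, its counts cannot be assigned to either chromosome.

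The ob/ob libraries held 433201 miRNA counts (jejunum) and 267077 (colon), against 466335 and 716476 in the ob/+ libraries. Levels are given as CPM, the count scaled to a common library total corrected by TMM (trimmed mean of M-values), and a count of 0 allowed up to between 4.55 and 9.45 CPM (3 counts). Intervals and floors cover counting error only. Deposited counts are estimates, and 7 of the 11 members had a fractional count in at least 1 library, so how reads were shared among near-identical arms is uncertain. A ratio of ob/ob over ob/+ compares a miRNA with the rest of its own library's miRNAs. As a share of mappable reads, miRNA counts were 12.3% (jejunum) and 10.6% (colon) in the ob/ob libraries, against 22.5% and 26.3% in the ob/+ libraries.

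Relative to the other miRNAs of each library, markers of some other cells differed between genotypes. Their sums scaled to mappable reads are not given, so higher sums in ob/ob may not hold on that scale. The 5 fibroblast arms found summed to 963 CPM (jejunum) and 888 CPM (colon) in ob/ob, against 4812 and 5001 CPM in ob/+, and 4 of 4 tested were lower. The 8 epithelial arms summed to 356 and 283 CPM in ob/ob, against 2088 and 897 in ob/+, with 4 of 6 tested lower. The 7 leukocyte arms summed to 1445 and 1083 CPM in ob/ob, against 785 and 716 in ob/+, with 1 of 6 tested higher. Of all 322 entries, 26 were called higher and 33 lower. DESeq2 called 4 fibroblast, 4 epithelial and 1 leukocyte arm, and limma-voom 3, 3 and 0. edgeR called 0 of 4 smooth muscle arms (2 at an unadjusted p under 0.05, 1 called by DESeq2), 0 of 2 striated muscle arms (2 unadjusted), 0 of 1 erythroid arm (0 unadjusted) and 0 of 5 neuronal and glial arms (2 unadjusted). DESeq2 called 0 of the last 3 groups, and limma-voom 0 of all 4. Smooth muscle arms summed to 348771 and 246396 CPM in ob/ob, against 252184 and 213597 in ob/+. Striated muscle arms summed to at most 688 CPM, erythroid arms to at most 2007 and neuronal and glial arms to at most 418 in any library. None of the arms found was at 0 in every library, and miR-199a-3p and miR-219-5p matched no entry. The endothelial names miR-126-3p and miR-126-5p matched none because the table has miR-126a, looked up after its values were seen. miR-126a-3p had 330 CPM in ob/ob jejunum against 520 in ob/+ jejunum, and 419 CPM in ob/ob colon against 369 in ob/+ colon. miR-126a-5p had 112 CPM in ob/ob jejunum against 95.8 in ob/+ jejunum, and 104 CPM in ob/ob colon against 100 in ob/+ colon, and neither passed edgeR's test (adjusted p = 0.594 and 0.747). The part of these cells in the miR-30 values was not tested, and in such sorted pools fewer cells of a type and less RNA per cell cannot be told apart.

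The family was a moderately abundant part of the ICC profile and was carried by its 5p arms. It took 3.03% of the miRNA counts in ob/ob jejunum (exact binomial 95% interval 2.98 to 3.09), against 2.32% in ob/+ jejunum. In colon it took 3.46% in ob/ob, against 2.30% in ob/+. Divided by mappable reads the order turned round, with 0.374% in ob/ob jejunum against 0.523% in ob/+ jejunum, and 0.368% in ob/ob colon against 0.604% in ob/+ colon. The 5p arms made up between 94.5% and 96.2% of the family's counts in each library. For scale, the let-7 5p arms with miR-98-5p summed to between 180915 and 211954 CPM, the miR-26 5p arms to between 42491 and 66749 CPM, the miR-30 5p arms to between 23565 and 29465 CPM and the miR-29 3p arms to between 1115 and 2029 CPM. Between genotypes edgeR called 0 of 9 arms of let-7 and miR-98 (4 at an unadjusted p under 0.05, 2 called by DESeq2), 0 of 2 of miR-26 (1 unadjusted, 0 by DESeq2) and 0 of 3 of miR-29 (1 unadjusted, 1 by DESeq2), and limma-voom called 0 of each.

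**Figure D1:**
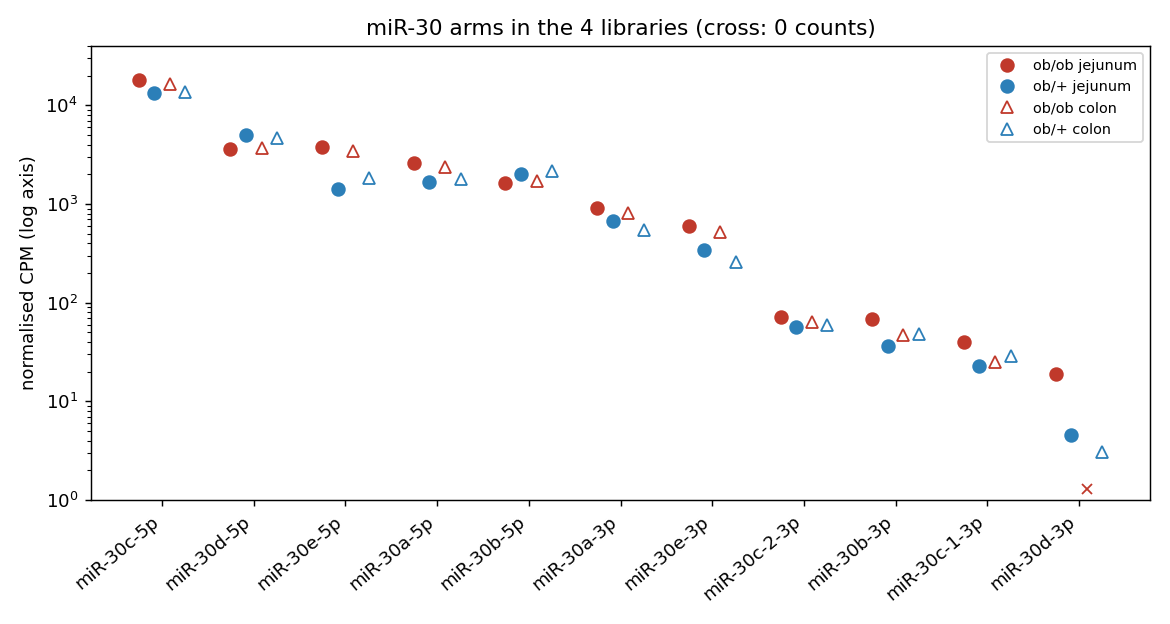
Level of each of the 11 miR-30 arms in the 4 libraries, in normalised CPM on a log axis, with arms ordered by mean level. Each symbol is 1 library and a cross marks 0 counts; the 5p arms, led by miR-30c-5p at 13471 to 17862 CPM, stand above all the 3p arms in these libraries.

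mmu-miR-30c-5p led the family in every library. It had 17862 CPM in ob/ob jejunum against 13471 in ob/+ jejunum, and 16387 CPM in ob/ob colon against 13566 in ob/+ colon. It ranked 11th of all 982 entries by mean level, and the next member, mmu-miR-30d-5p, ranked 26th. mmu-miR-30d-5p had 3587 CPM in ob/ob jejunum against 5006 in ob/+ jejunum, and 3713 CPM in ob/ob colon against 4705 in ob/+ colon. On this scale the ob/ob libraries were the lower ones, the opposite of miR-30c-5p. With library totals the log2 ratio of ob/ob over ob/+ in colon is 0.03 for miR-30d-5p, close to equal levels. Scaled to mappable reads miR-30c-5p is lower in ob/ob too. mmu-miR-30b-5p, whose hairpin neighbours that of miR-30d, had the same direction in both tissues (log2 ratio 0.04 in colon with library totals). Its levels were 1644 CPM in ob/ob jejunum against 2017 in ob/+ jejunum, and 1716 CPM in ob/ob colon against 2163 in ob/+ colon.

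mmu-miR-30e-5p and mmu-miR-30a-5p, which differ by 1 base, were both higher in the ob/ob libraries without overlap between genotypes, as were 33.2% of all 322 entries tested, except that scaled to mappable reads miR-30a-5p is lower in ob/ob in both tissues and miR-30e-5p in colon. miR-30e-5p had 3748 CPM in ob/ob jejunum against 1408 in ob/+ jejunum, and 3420 CPM in ob/ob colon against 1855 in ob/+ colon. miR-30a-5p had 2624 CPM in ob/ob jejunum against 1663 in ob/+ jejunum, and 2393 CPM in ob/ob colon against 1783 in ob/+ colon. By level, miR-30e-5p was above miR-30a-5p in both ob/ob libraries and in ob/+ colon, and below it in ob/+ jejunum. In ob/+ colon the order rested on little, since miR-30e-5p made up 51.0% of the counts of the pair (exact binomial 95% interval 49.0 to 53.0).

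The 3p arms stood at 2 levels. miR-30a-3p had 916 CPM in ob/ob jejunum against 675 in ob/+ jejunum, and 819 CPM in ob/ob colon against 542 in ob/+ colon. mmu-miR-30e-3p had 603 CPM in ob/ob jejunum against 338 in ob/+ jejunum, and 523 CPM in ob/ob colon against 260 in ob/+ colon. Both, like their 5p partners, were higher in each ob/ob library than in either ob/+ library, but scaled to mappable reads miR-30a-3p is lower in ob/ob and the libraries of miR-30e-3p overlap. In all, 6 of the 10 arms tested were higher without overlap and 2 were lower, where 36.6% of all entries were lower; scaled to mappable reads 0 arms were higher and 6 lower, beside 13.7% and 67.4% of all entries. The other 3p arms stayed at or under 71.2 CPM. miR-30c-2-3p had estimated counts of 30 in ob/ob jejunum against 25 in ob/+ jejunum, and 20 in ob/ob colon against 39 in ob/+ colon. mmu-miR-30b-3p had counts of 29 in ob/ob jejunum against 16 in ob/+ jejunum, and 15 in ob/ob colon against 32 in ob/+ colon. mmu-miR-30c-1-3p had 17 in ob/ob jejunum against 10 in ob/+ jejunum, and 8 in ob/ob colon against 19 in ob/+ colon. These counts follow library size as well as level, and ob/+ colon is the deepest library. miR-30d-3p had 8 counts in ob/ob jejunum against 1.5 in ob/+ jejunum, and 0 in ob/ob colon (up to 9.45 CPM) against 2 in ob/+ colon. It was the only member under the minimum mean of 10 CPM for testing, which left 10 arms.

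The first question the design poses is which miRNAs differ in ob/ob ICC. Over both tissues, miR-30e-5p rose 2.21-fold in ob/ob (log2 change 1.15 ± 0.22, an SE derived from F; edgeR's quasi-likelihood test adjusting for tissue, Benjamini-Hochberg adjusted p = 0.0346). It was the only call among the 10 arms tested: 1 rose and 0 fell. Earlier work on these same data had called miR-30e-5p, and this was known when the test was planned, so the call is not a fresh finding. Among all 322 entries tested, 8.07% were called higher and 10.2% lower in ob/ob, so 1 in 10 arms is close to the background share. miR-30e-3p, from the same hairpin, had a log2 change of 0.92 ± 0.23 and did not pass (adjusted p = 0.0560), although DESeq2 called it (adjusted p = 0.0379). Over its alternatives the adjusted p ranged from 0.00178, with TMM over the tested entries (added after seeing the data), to 0.890, scaled to mappable reads. DESeq2 called miR-30e-5p and miR-30e-3p, where 28 of the 322 entries were called higher and 37 lower. limma-voom called miR-30e-5p alone (adjusted p = 0.0499), where 13 entries were called higher and 21 lower. At an unadjusted p under 0.05, edgeR had 3 of the 10 arms and 131 of the 322 entries.

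The call of miR-30e-5p depended on what it was measured against. Its log2 change stayed above 0 in all 14 alternatives (0.27 to 1.36), and 10 of them called it. The adjusted p ranged from 1.16e-06, with TMM over the tested entries (added after seeing the data), to 0.392. Adjusted p of 2.39e-05 and below came only from edgeR fits with infinite prior degrees of freedom. Scaled to mappable reads the change was 0.27 (adjusted p = 0.392), and the median change of all tested entries was -0.96, beside -0.09 as reported. Relative to that median, miR-30e-5p stood at 1.23, a value that scaling leaves as it is by construction; with no abundance filter it stood at 0.86. With no abundance filter it was not called (1.15, adjusted p = 0.135), and 0 entries were called higher and 2 lower. Fits without 1 library cannot keep the tissue term, so they change that too and set 1 library, assumed to vary like the others, against 2 from both tissues. Without ob/ob jejunum (1.07, adjusted p = 0.138) or ob/ob colon (1.33, adjusted p = 0.0905) miR-30e-5p was not called, and over all 322 entries 0 were higher and 2 lower in each fit. Without ob/+ jejunum (1.09, adjusted p = 0.0123) 4 arms were called higher, where 51 of the 322 entries were, and without ob/+ colon (1.35, adjusted p = 0.00926) 1 arm was, where 28 were.

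The remaining arms did not pass and stood on either side of 0. miR-30a-5p had a log2 change of 0.54 ± 0.20 (edgeR adjusted p = 0.111), miR-30a-3p of 0.52 ± 0.22 (adjusted p = 0.150) and miR-30c-5p of 0.34 ± 0.15 (adjusted p = 0.162), and all 3 turned negative scaled to mappable reads. miR-30d-5p had -0.41 ± 0.18 (adjusted p = 0.153) and miR-30b-5p -0.31 ± 0.19 (adjusted p = 0.282), below 0 in every alternative run. Scaled to mappable reads both were called lower (-1.29 and -1.19), where 158 of the 322 entries were. The 3 rare 3p arms had changes of 0.20 to 0.44 with SEs of 0.33 to 0.46. The median over the 10 arms was 0.39, beside -0.09 over all entries tested, or -0.49 beside -0.96 scaled to mappable reads. With no abundance filter it was 0.39 beside 0.29, so the gap depends on which entries are compared. miR-384-5p, the other carrier of the 5p seed, was rare, with 19.0 CPM (jejunum) and 31.5 CPM (colon) in ob/ob, against 16.0 and 27.3 CPM in ob/+, and did not pass (0.22 ± 0.44, adjusted p = 0.733).

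**Figure D2:**
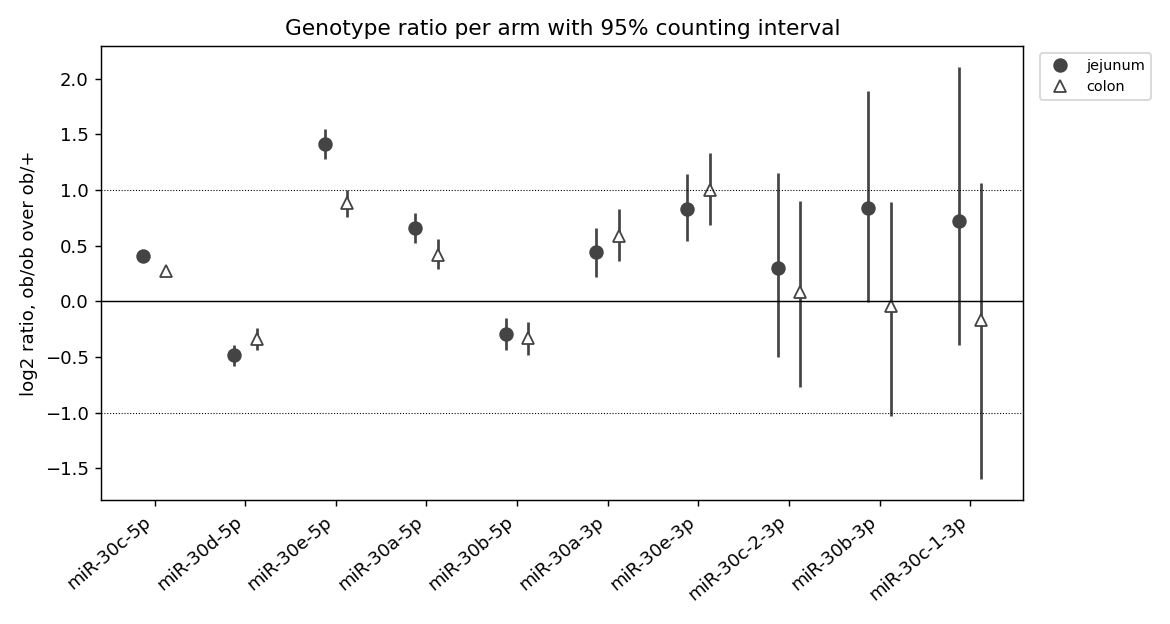
Log2 ratio of ob/ob over ob/+ for the 10 arms tested, in jejunum (filled circles) and colon (open triangles), with exact 95% counting intervals as bars; dotted lines mark 2-fold. miR-30e-5p stands highest of the 5p arms in both tissues, although its colon ratio is -0.05 scaled to mappable reads, and miR-30b-5p and miR-30d-5p stand below 0 in both, apart from colon ratios of 0.04 and 0.03 with library totals.

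Within each tissue, values have 1 library a group and no test. In jejunum 1 of the 10 arms was at least 2-fold higher in ob/ob and 0 lower, where 14.9% of all entries were higher and 18.0% lower. That arm was miR-30e-5p, with a log2 ratio of 1.41 (95% interval 1.28 to 1.55). In colon 0 arms reached 2-fold, where 17.7% of all entries were higher and 17.1% lower. miR-30e-3p came nearest in colon at 1.0 (0.69 to 1.33), just short of 2-fold before rounding, and miR-30e-5p stood at 0.88 (0.76 to 1.0). The authors' deposited table gives ratios of 2.45 in jejunum and 1.95 in colon for miR-30e-5p. It gives 1.64 and 2.13 for miR-30e-3p, and 0.659 and 0.835 for miR-30d-5p. The median log2 ratio of the arms was 0.55 in jejunum and 0.18 in colon, or -0.27 and -0.73 scaled to mappable reads. Over all entries the median log2 ratios were 0.02 and -0.18 with TMM, to be set beside the 0.55 and 0.18 of the arms. Medians of all entries scaled to mappable reads are not given for each tissue. Over both tissues, the median change on that scale was -0.96 for all entries and -0.49 for the arms.

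The order of the 5p arms was alike in the 2 tissues, and no scaling between libraries can change it. In jejunum the log2 ratios ran from 1.41 for miR-30e-5p through 0.66 for miR-30a-5p, 0.41 for miR-30c-5p and -0.29 for miR-30b-5p to -0.48 for miR-30d-5p. In colon they ran from 0.88 through 0.42, 0.27 and -0.33 to -0.34 for the same arms in the same order. The intervals of miR-30e-5p (1.28 to 1.55 in jejunum, 0.76 to 1.0 in colon) lay above those of every other 5p arm in that tissue. Those of miR-30b-5p and miR-30d-5p overlapped each other in both tissues, as did those of miR-30a-5p and miR-30c-5p in colon. Of the 10 arms, 6 were above 0 in both tissues, 2 below 0 in both and 2 opposite. The share with the same direction was 80%, beside 78.6% of all 322 entries.

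**Figure D3:**
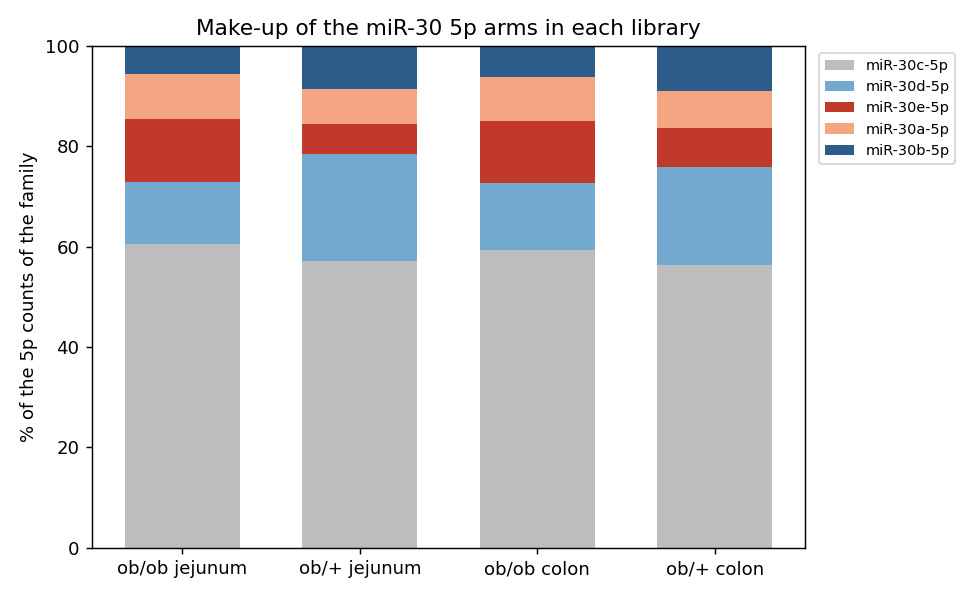
Make-up of the miR-30 5p counts in each library, as stacked bars summing to 100%. miR-30e-5p fills 12.7% and 12.4% in the ob/ob libraries, against 5.97% and 7.71% in ob/+, and miR-30d-5p is the thinner part in ob/ob.

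As a share of the family's own 5p counts, which needs no scaling between libraries, the make-up differed by genotype in both tissues. miR-30e-5p took 12.7% (exact binomial 95% interval 12.1 to 13.3) in ob/ob jejunum, against 5.97% (5.52 to 6.45) in ob/+ jejunum, and 12.4% (11.7 to 13.1) in ob/ob colon, against 7.71% (7.29 to 8.13) in ob/+ colon. miR-30d-5p took 12.2% in ob/ob jejunum against 21.2% in ob/+ jejunum, and 13.4% in ob/ob colon against 19.5% in ob/+ colon. miR-30b-5p took 5.58% in ob/ob jejunum against 8.56% in ob/+ jejunum, and 6.21% in ob/ob colon against 8.99% in ob/+ colon. These 2 arms, from neighbouring hairpins, were the ones with smaller shares in ob/ob. miR-30a-5p took 8.91% in ob/ob jejunum against 7.06% in ob/+ jejunum, and 8.66% in ob/ob colon against 7.41% in ob/+ colon. miR-30c-5p held most of the 5p counts, with 60.6% in ob/ob jejunum against 57.2% in ob/+ jejunum, and 59.3% in ob/ob colon against 56.4% in ob/+ colon. miR-30e-5p therefore reached 1.05 times the count of miR-30d-5p in ob/ob jejunum, against 0.281 times in ob/+ jejunum. In colon it reached 0.922 times in ob/ob, against 0.394 times in ob/+. These intervals do not cover the spread between pools, for which the design has no replicate.

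In the pairs shown above to differ by 1 base, the miR-30e share was larger in ob/ob than in ob/+ of the same tissue on both arms. Pairs with an arm of miR-30b or miR-30d could not be compared by sequence. miR-30e-5p made up 58.8% of the counts of miR-30e-5p and miR-30a-5p in ob/ob jejunum (56.9 to 60.7), against 45.8% in ob/+ jejunum (43.2 to 48.5), and 58.8% in ob/ob colon (56.5 to 61.1), against 51.0% in ob/+ colon (49.0 to 53.0). miR-30e-3p made up 39.7% of the counts of miR-30e-3p and miR-30a-3p in ob/ob jejunum (35.9 to 43.6), against 33.3% in ob/+ jejunum (29.0 to 37.9), and 39.0% in ob/ob colon (34.3 to 43.8), against 32.4% in ob/+ colon (28.4 to 36.6). On the 3p side these intervals overlapped between genotypes.

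The choice of arm differed strongly between hairpins and less between libraries. The 5p arm made up 99.4% to 99.5% of miR-30c counts, between 99.5% and 100% of miR-30d and between 96.0% and 98.2% of miR-30b in the 4 libraries. miR-30e gave 86.2% in ob/ob jejunum against 80.7% in ob/+ jejunum, and 86.7% in ob/ob colon against 87.8% in ob/+ colon, so that ob/+ jejunum was the low library. miR-30a gave the least, with 74.1% in ob/ob jejunum against 71.2% in ob/+ jejunum and 74.5% in ob/ob colon against 76.7% in ob/+ colon. Of the 3p counts of miR-30c, the arm from the chromosome 1 hairpin (miR-30c-2-3p) made up 63.8% in ob/ob jejunum against 71.4% in ob/+ jejunum, and 71.4% in ob/ob colon against 67.2% in ob/+ colon. The last shares rest on 28 to 58 counts, and their intervals overlapped throughout.

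**Figure D4:**
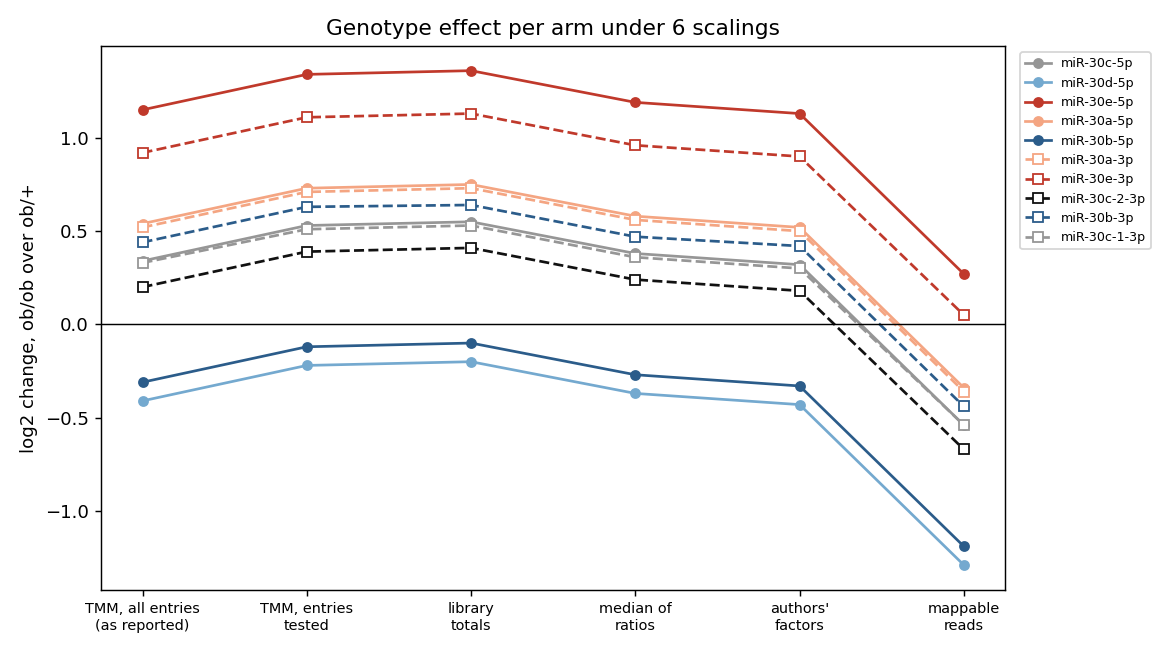
Log2 change of ob/ob over ob/+ over both tissues for the 10 arms under 6 scalings of the libraries (5p arms solid with filled circles, 3p arms dashed with open squares, miR-30c-2-3p in black). The scaling moves all arms together: miR-30e-5p is highest throughout, at 1.15 as reported and 0.27 scaled to mappable reads, where 6 arms turn from above to below 0.

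The second question is how colonic ICC differ from jejunal ICC. Over both genotypes, edgeR called 0 of the 10 arms, and the calls were 0.00% of all 322 entries. At an unadjusted p under 0.05 there were 0 arms and 13 entries, and DESeq2 and limma-voom called 0 arms as well. The largest change was that of miR-30e-3p (-0.29 ± 0.23, adjusted p = 0.964), and the SEs of the 10 arms lay between 0.15 and 0.46. By ratio of colon over jejunum, 0 arms differed at least 2-fold in ob/ob, where 8.07% of all entries did, and 0 in ob/+, where 11.8% did. miR-30e-5p had a log2 ratio of -0.13 (-0.25 to -0.02) in ob/ob and 0.40 (0.26 to 0.54) in ob/+. Its lowest level of the 4 libraries was in ob/+ jejunum. The 5p arms together had a ratio of -0.09 (-0.13 to -0.05) in ob/ob and 0.03 (-0.01 to 0.07) in ob/+.

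Other miRNAs were ranked by how like their pattern was to that of the summed 5p arms, which mostly follows miR-30c-5p, and to that of miR-30e-5p. Likeness was measured as the distance between log2 CPM values, each centred on its mean over the 4 libraries, among the 142 entries outside the family with at least 100 CPM on average. The summed 5p arms stood at 0.18 (jejunum) and 0.08 (colon) in ob/ob, against -0.15 and -0.11 in ob/+. The nearest were let-7d-5p (distance 0.04), miR-27b-3p (0.10), miR-126a-5p (0.13), miR-664-3p (0.15) and let-7a-5p (0.17). miR-30e-5p stood at 0.64 (jejunum) and 0.51 (colon) in ob/ob, against -0.77 and -0.37 in ob/+. Nearest to it were miR-146a-5p (0.35), miR-322-3p (0.43), miR-185-5p (0.43), miR-342-3p (0.53) and miR-490-3p (0.54). Among these, miR-342-3p is also a leukocyte marker above and miR-126a-5p an endothelial arm. With 4 libraries, such likeness is a description.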

How the data were processed

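Sorted Kit+ cells of 4 pools were sequenced as small-RNA libraries. The authors trimmed adapters, dropped short reads and assigned the rest to miRBase 20 miRNAs on mm9, per the file headers. Which aligner, counter and scaling they used is not given in the sources used here. Raw values were deposited as estimated counts. The authors' normalized signal equals those counts times 1 factor per library (1.0 and 1.45 for ob/ob jejunum and colon, 1.05 and 0.661 for ob/+). The authors' deposited ratio divides ob/ob by ob/+. Read numbers per step (other values) were also deposited. Small-intestine columns were matched to the jejunal libraries.

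Counts were rounded and scaled by TMM over all entries (factors 0.973 and 1.19 for ob/ob jejunum and colon, 0.940 and 0.920 for ob/+). Entries averaging 10 CPM or more (322) were tested in edgeR 4.0.16 (quasi-likelihood, 1 residual and 3.80 prior degrees of freedom, Benjamini-Hochberg over the 322, threshold 0.05), with limma 3.58.1 and DESeq2 1.42.0 as alternatives. SE is the absolute log2 change over the square root of F, not a spread between replicates. Ratios used a prior count of 2 and exact conditional binomial 95% intervals; shares used exact binomial intervals. Fits were tested on simulated counts. The members, the marker lists (muscle of both kinds, neuron and glia, blood and vessel cells, fibroblast, epithelium), the comparison families and the rule for named miRNAs (all members, other carriers of their seeds, the 5 closest patterns) were chosen with earlier results of these data known. Other scalings, filters, prior counts, fold thresholds, tests and left-out libraries were planned; TMM over the tested entries alone was added after seeing the data.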

Additional observations from a re-analysis of the deposited data

Results flagged for a closer look

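Both arms below had ratios of ob/ob over ob/+ in opposite directions in the 2 tissues, and the difference between tissues was not tested. miR-30b-3p had a log2 ratio of 0.84 in jejunum (95% interval -0.01 to 1.89) and -0.04 in colon (-1.03 to 0.89). miR-30c-1-3p had 0.72 in jejunum (-0.39 to 2.11) and -0.17 in colon (-1.60 to 1.06). Each rests on at most 32 counts in a library, and the intervals of the 2 tissues overlap.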

How the results depend on the processing

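The number of arms called by genotype, 1 as reported (26 of all 322 entries higher), was 4 with library totals (44 higher), 2 with median-of-ratios factors (59), 2 with the authors' factors (55), 2 without the tissue term (42), 2 in DESeq2 (28), 3 at a minimum of 100 CPM (31 of 151) and 5 with TMM over the tested entries (76), all higher in ob/ob. Scaled to mappable reads it was 2, both lower, where 19 entries were higher and 158 lower. It was 0 with no abundance filter and 0 to 4 with 1 library left out, in fits that also lose the term for the other factor. The log2 change of miR-30e-5p was 0.27 scaled to mappable reads and 1.15 with no filter, both without a call (adjusted p = 0.392 and 0.135), and 1.07 to 1.35 with 1 library left out. The prior degrees of freedom were infinite with TMM over the tested entries, median-of-ratios factors, the authors' factors, mappable reads and the 100 CPM minimum.

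Scaled to mappable reads, genotype changes reversed to -0.36 (miR-30a-3p), -0.34 (miR-30a-5p), -0.44 (miR-30b-3p), -0.54 (miR-30c-1-3p), -0.67 (miR-30c-2-3p) and -0.54 (miR-30c-5p). With 1 library left out, that of miR-30c-1-3p ranged from -0.05 (without ob/ob jejunum) to 0.75. No arm passed by tissue under any alternative, and several tissue changes near 0 reversed. With library totals they were 0.11 (miR-30a-5p), 0.07 (miR-30b-3p), 0.06 (miR-30c-2-3p), 0.07 (miR-30c-5p) and 0.11 (miR-30d-5p). Scaled to mappable reads these 5 were 0.12, 0.08, 0.08, 0.08 and 0.11. miR-30a-5p was at 0.01 and miR-30d-5p at 0.00 with the authors' factors and with TMM over the tested entries. With 1 library left out, the genotype term cannot be kept and tissue changes carry the genotype difference; they ranged from -0.63 to 0.04 for miR-30a-3p, -0.37 to 0.33 for miR-30a-5p, -0.58 to 0.39 for miR-30b-3p, -0.09 to 0.18 for miR-30b-5p, -0.63 to 0.25 for miR-30c-1-3p, -0.28 to 0.10 for miR-30c-2-3p, -0.30 to 0.15 for miR-30c-5p, -0.25 to 0.17 for miR-30d-5p, -0.94 to 0.21 for miR-30e-3p and -0.57 to 0.90 for miR-30e-5p.

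Arms at least 2-fold different in jejunum, 1 as reported (higher in ob/ob), numbered 5 at 1.5-fold, all higher, and 0 at 4-fold. Scaled to mappable reads they numbered 2, both lower in ob/ob (log2 ratio -1.11 for miR-30b-5p and -1.30 for miR-30d-5p). In colon, 0 as reported, 2 were higher with library totals and with TMM over the tested entries (miR-30e-3p and miR-30e-5p). Scaled to mappable reads 2 were lower (-1.26 for miR-30b-5p and -1.27 for miR-30d-5p). With median-of-ratios factors, the authors' factors or a prior count of 0.5, 1 was higher (miR-30e-3p), and at 1.5-fold 3 were higher. The shares of all entries at these other settings are not given here. Colon over jejunum in ob/ob gave 1 at 1.5-fold. The family's share of mappable reads was 0.374% and 0.368% in ob/ob jejunum and colon, against 0.523% and 0.604% in ob/+. Adding miR-30 entries without an arm suffix changed nothing, as the table given here lists none. The cause of these shifts was not tested. The tissue term already pairs the genotypes within tissue; no paired analysis by replicate number was possible because each group has 1 library. Low counts limit the 4 rarest 3p arms most.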
